A study of Homo sapiens with 4 samples.

Results

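HEK293 cells of an LGP2-4KR line were compared with those of an LGP2 line, once unstimulated and once 12 h after stimulation, so that the 2 times stood in for replicates. The members were the gene probes of the array with a deposited value on all 4 arrays, 20465 of 24460. No threshold on a difference was used to choose them. The filter did leave out 19 probes given on both LGP2 arrays only and 5 given on both 4KR arrays only. The cells were HEK293, an immortalized human embryonic kidney line, labelled LGP2 Tg or LGP2-4KR Tg. The labels do not say what 4KR changes in LGP2, what promoter drives either transgene, or whether a line is 1 clone. Cells at 12 h had been transfected using Lipofectamine 2000 with short poly I:C, an artificial mimic of viral double-stranded RNA, at 100 ng/ml, and cells at 0 h had not. Each line had 1 array at each time, no array came from mock-transfected cells, and nothing says that the 4 RNAs came from separate cultures. The p-values therefore measure only the spread between these arrays, and a line difference that depends on stimulation counts as error in them.

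LGP2, the product of DHX58, belongs with RIG-I and MDA5 to the RIG-I-like receptors, a family of RNA helicases. Both relatives sense viral double-stranded RNA in the cytoplasm and signal through the adaptor MAVS to the kinase TBK1 and the factor IRF3, which switch on interferon genes. LGP2 lacks the signalling domains of its relatives, modulates their output, and binds TRBP and PACT, cofactors of the Dicer enzyme that processes microRNAs.

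The deposited intensities are scaled so that the given values of an array have a median of 25. The 4 arrays gave between 20708 and 22308 values each, and blank spots varied with a SD of 1.05 to 1.28 scanner units. Of the members, 18206 probes carried 1 gene symbol, and these named 15968 genes. A further 2030 probes had a value on some arrays only, and 1965 had none. All line differences below are log2 ratios of 4KR over LGP2 cells after each array was centred on its median over the members, so a negative value means a lower intensity in 4KR cells.

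DHX58 itself had a deposited intensity of 41.4 in LGP2 cells and 22.8 in 4KR cells at 0 h, and of 51.0 and 42.6 at 12 h. The 4KR value was the lower one at each time, with log2 ratios of -0.88 and -0.19, although the lines overlapped across times. In RNA from a whole culture, fewer cells with a transcript and less of it per cell cannot be told apart. The mean was -0.54 (SE 0.16, limma adjusted p = 0.884). The probe lies in column 91 of array block 24, where the median ratio of the probes of columns 79 to 91 was -0.49 at 0 h and -0.01 at 12 h. A position correction took from each array the median deviation of those probes from their means over all arrays. Each array was then centred again, so the result differs from subtracting the median ratio. This correction, called local medians at 0 below, gave DHX58 ratios of -0.43 and -0.25. Whether this single probe lies within the transgenes is not known here, so it does not check the labels.

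The line differences at the 2 times had little in common. Over all 20465 probes the ratios at 0 h and at 12 h correlated with Pearson's r = 0.01 and Spearman's rho = 0.04, given as a description across probes, which share the arrays and are not replicates. The same sign at both times was seen for 10855 probes (53%), of which 4672 (22.8% of all) were higher in 4KR cells and 6183 (30.2%) lower. Among the 10764 probes with a mean intensity of at least 25 the share was 55.2%, with 19.8% higher and 35.4% lower.

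The ratios spread more widely among dim probes. Below a mean intensity of 5 their SD was 0.40 at both times and 46.8% of 2947 probes had the same sign. The medians of these dim probes were 0.07 at 0 h and -0.09 at 12 h, or -0.002 and -0.008 under quantile normalization. At an intensity of 100 or more the SD was 0.19 at 0 h and 0.15 at 12 h, and 56.2% of 4942 probes had the same sign. The bright probes had medians of -0.03 and -0.06, which quantile normalization moved to 0.02 and 0.00, so their lean toward lower values in 4KR cells turned with the scaling. For the 869 genes with exactly 2 probes of mean intensity at least 25, the mean differences of the 2 probes had the same sign in 57.5% and correlated with r = 0.11.

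**Figure D1:**
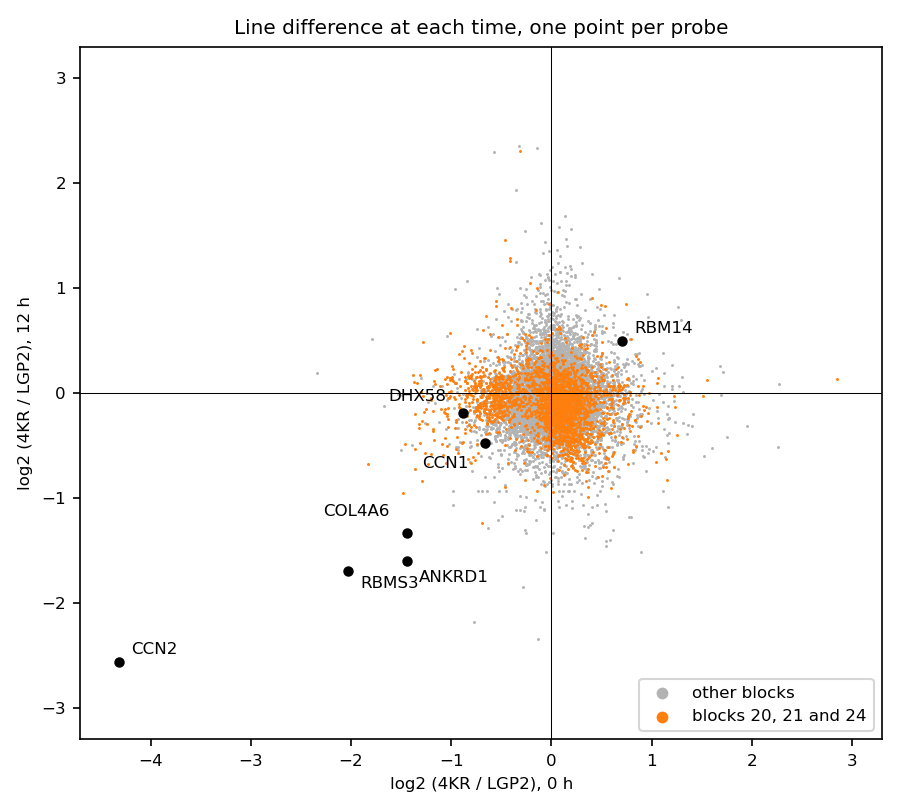
Line difference of each of the 20465 probes at 0 h (horizontal axis, log2 of 4KR over LGP2) and at 12 h (vertical axis, same unit), with probes of array blocks 20, 21 and 24 in orange and 7 named probes in black. The cloud shows no common slope, and CCN2, RBMS3, ANKRD1 and COL4A6 stand apart at the lower left. By its medians, block 24 is shifted to lower ratios at 0 h only. Blocks 20 and 21 are shifted to higher ratios at 0 h and lower ones at 12 h.

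Counts past a fold threshold were about as small in the same direction as in opposite ones. At 0 h alone, 393 probes (1.92%) were at least 1.5-fold higher in 4KR cells and 448 (2.19%) at least 1.5-fold lower. At 12 h alone the counts were 283 (1.38%) and 366 (1.79%). At both times 10 probes (0.0489%) were 1.5-fold higher and 29 (0.142%) 1.5-fold lower, together 39 (0.191%), while 36 (0.176%) were 1.5-fold apart in opposite directions. At 2-fold the counts at 0 h alone were 65 higher (0.318%) and 83 lower (0.406%), and at 12 h alone 58 (0.283%) and 51 (0.249%). At both times 0 probes (0%) were 2-fold higher and 4 (0.0195%) 2-fold lower, against 1 (0.00489%) in opposite directions.

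Most of those probes were dim or lay in block 24. Of the 29 lower probes, 13 were in block 24, 11 of them in columns 92 to 104, 1 was in block 20 or 21, and 15 were elsewhere. A mean intensity under 25 was found for 25 of the 29, and under 5 for 16. Of all 20465 probes, 10764 had a mean intensity of at least 25 and 2947 one under 5. Block 24 held 848 of all probes, 110 of them in columns 92 to 104. Of the 10 higher probes, 9 were under 25 and 1 lay in the 3 blocks. Above 25, only 4 of 10764 probes (0.0372%) were 1.5-fold lower at both times and 1 (0.00929%) was 1.5-fold higher.

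The array's layout was visible in the ratios. The median ratio of block 24 was -0.49 at 0 h and 0.01 at 12 h. Blocks 20 and 21 had medians of 0.12 and 0.16 at 0 h and of -0.11 and -0.18 at 12 h, opposite in sign at the 2 times. Outside these 3 blocks the medians ran from -0.18 to 0.08 at 0 h and from -0.13 to 0.05 at 12 h, the lowest being those of block 23 (-0.18 at 0 h) and block 1 (-0.11 and -0.13). In columns 92 to 104 of blocks 24, 23 and 1 both times leaned the same way. The medians there were -0.75 and -0.19 in block 24, -0.37 and -0.17 in block 23 and -0.15 and -0.27 in block 1. Columns 92 to 104 of block 22 (-0.13 and -0.14) and columns 1 to 13 of block 1 (-0.18 at both times) also did so. Probes in these places that were lower in 4KR cells at both times were so together with their neighbours, and what part of a difference belongs to its place was not tested.

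**Figure D2:**
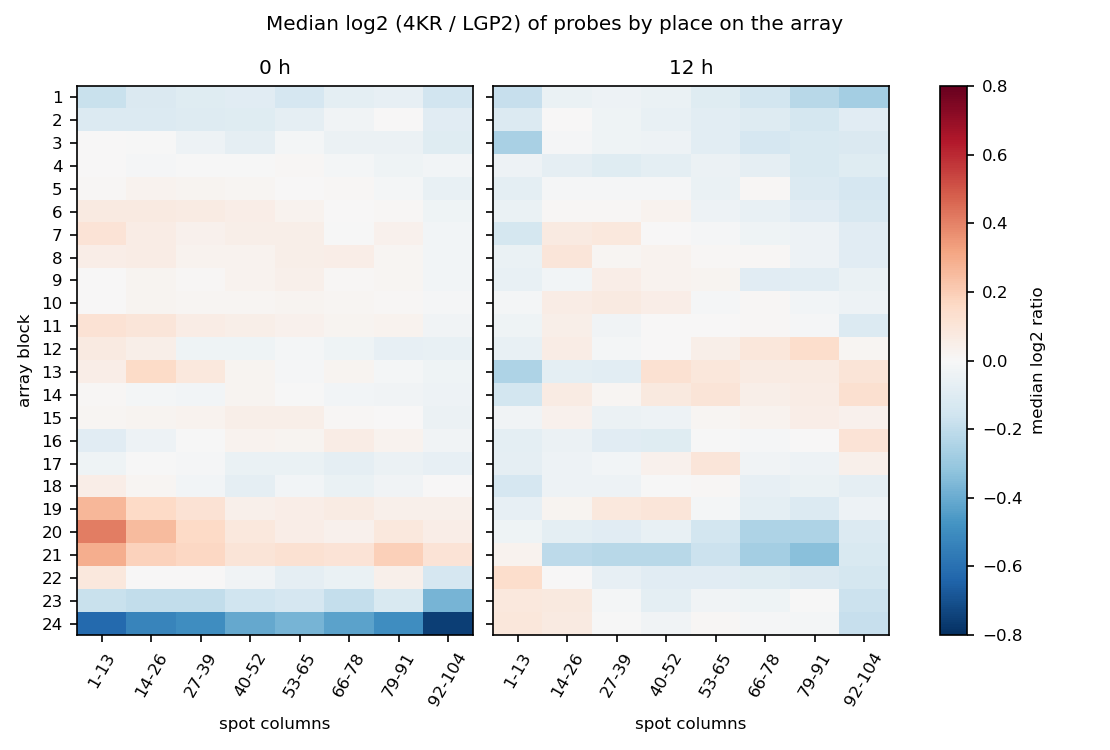
Median log2 ratio of 4KR over LGP2 in each array block (vertical axis) and each run of 13 spot columns (horizontal axis), at 0 h on the left and 12 h on the right, with red for higher and blue for lower in 4KR cells. Block 24 is blue at 0 h only, except in its last columns, while blocks 20 and 21 are red at 0 h and blue at 12 h.

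In the limma fit of line and time over all members, 0 probes passed an adjusted p of 0.05 in either direction (0% each), and 1100 (5.38%) had an unadjusted p under 0.05. The smallest adjusted p was 0.174, that of RBMS3. With blocks 20, 21 and 24 left out, 37 of 17903 probes passed (0.207%), 32 lower (0.179%) and 5 higher (0.0279%), but 16 of them lay in block 23 and 5 in block 1. With blocks 1 and 23 left out as well, a choice made after seeing the data, 26 of 16236 passed (0.16%). Of these, 19 were lower (0.117%) and 7 higher (0.0431%), and 16 of the 26 were among the 37. Of the 26, 6 lay in block 22 and 7 in columns from 100 on. The 6 were in columns 92 to 104 of block 22, where the median ratios were -0.13 at 0 h and -0.14 at 12 h. The other 9 settings tried gave 0 probes, with unadjusted counts between 123 and 1464. The prior degrees of freedom, which say how alike the probes' spreads are taken to be, were 4.87 with all blocks, 11.8 without the 3 and 15.0 without the 5. The ratios of blocks 20, 21 and 24 differed between the times, and that difference is the only residual. Adjusted p-values from fits without blocks therefore rest in part on leaving them out. With all probes kept, the smallest limma adjusted p was 0.110 with local medians at 0 and 0.0708 with that correction made over whole blocks.

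CCN2 had the largest mean difference of all members. It encodes CTGF, a secreted matricellular protein and a target of YAP, the co-activator that the Hippo pathway holds in check and that binds DNA through TEAD factors. Its probe in block 24 read 189 in LGP2 and 9.6 in 4KR cells at 0 h, and 152 and 24.4 at 12 h. Both 4KR arrays were below both LGP2 arrays, 19.9-fold at 0 h and 5.93-fold at 12 h. The mean ratio was -3.44 (SE 0.37, limma adjusted p = 0.673), the wide error coming from ratios of -4.32 and -2.57. The 32 probes within 4 columns and 3 rows of it had medians of -0.86 and -0.28, and none reached its ratio, the lowest being -1.44 and -1.33, both of COL4A6. With local medians at 0, the CCN2 ratios were -3.66 and -2.45. They were -2.57 and -1.68 after normexp, a background correction that shrinks the ratios of dim probes, and -2.64 and -1.80 with 25 added to each value. A second CCN2 probe, in block 3, read 8.55 and 8.2 at 0 h and 10.1 and 8.7 at 12 h. Its ratios of -0.08 and -0.15 had the same sign but were far smaller.

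ANKRD1 encodes an ankyrin repeat protein and is another standard YAP target. Its intensities were 9.15 in LGP2 and 3.4 in 4KR cells at 0 h, and 11.8 and 3.7 at 12 h. The lines did not overlap, with ratios of -1.45 and -1.61 and a mean of -1.53 (SE 0.15, limma adjusted p = 0.587). Its probe lies in block 6, away from the shifted places, and with local medians at 0 the ratios were -1.46 and -1.61. The adjusted p was 0.00252 without blocks 20, 21 and 24 and 0.000349 without the 5 blocks. The size depended on the added constant, with ratios of -0.26 and -0.30 after normexp and -0.27 and -0.32 with 25 added to each value.

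CCN1, which encodes the CTGF relative CYR61 and is likewise induced by YAP, read 47.4 and 30.3 at 0 h and 109 and 74.5 at 12 h. The 4KR array was the lower one at each time, although 4KR cells at 12 h were above LGP2 cells at 0 h. Its ratios were -0.66 and -0.48 (-0.39 and -0.33 after normexp), the mean -0.57 (SE 0.09, limma adjusted p = 0.834), and the adjusted p was 0.0165 and 0.0035 in the fits without 3 and 5 blocks.

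RBMS3, an RNA-binding protein of the c-Myc single-strand binding family, had the smallest adjusted p. It read 21.4 and 5.3 at 0 h and 19.4 and 5.7 at 12 h. Each line's values at the 2 times were close, and both 4KR values were below both LGP2 values. The ratios were -2.03 and -1.70, or 4.09-fold and 3.25-fold lower, with a mean of -1.86 (SE 0.13). Its adjusted p of 0.174 in the fit of all members became 3.07e-05 without the 3 blocks and 1.07e-06 without the 5. Limma fits that corrected for position and kept all probes gave no probe an adjusted p under 0.0708. The local median around its spot in block 6 was 0.01 at 0 h and -0.09 at 12 h. Here too the size depended on the added constant, with -0.60 and -0.46 after normexp and -0.62 and -0.50 with 25 added.

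The promoters of the 3 leading genes are shown because YAP acts through TEAD factors, whose core motif is GGAATG. On the opposite strand it reads CATTCC. Each is the 250 bases before the RefSeq start, on the gene's own strand in GRCh38.p14, with GGAATG in capitals: CCN2 at chr6:131951373-131951622 (minus strand), ANKRD1 at chr10:90921088-90921337 (minus) and RBMS3 at chr3:29280821-29281070 (plus).
CCN2: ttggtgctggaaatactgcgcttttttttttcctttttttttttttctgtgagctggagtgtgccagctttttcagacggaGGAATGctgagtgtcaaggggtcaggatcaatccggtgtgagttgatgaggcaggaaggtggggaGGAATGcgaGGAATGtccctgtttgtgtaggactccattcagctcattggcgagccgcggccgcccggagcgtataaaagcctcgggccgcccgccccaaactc
ANKRD1: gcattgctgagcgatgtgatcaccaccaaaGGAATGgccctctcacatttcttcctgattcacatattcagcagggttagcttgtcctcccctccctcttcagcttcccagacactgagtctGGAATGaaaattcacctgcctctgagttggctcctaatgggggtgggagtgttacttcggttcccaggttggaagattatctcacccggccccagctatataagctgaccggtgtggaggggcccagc
RBMS3: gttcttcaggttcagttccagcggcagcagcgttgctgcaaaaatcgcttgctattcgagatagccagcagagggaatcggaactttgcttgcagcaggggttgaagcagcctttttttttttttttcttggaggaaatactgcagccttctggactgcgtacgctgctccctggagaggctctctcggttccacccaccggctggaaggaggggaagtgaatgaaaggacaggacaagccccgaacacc

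The CCN2 window held 3 copies of GGAATG, starting 169, 104 and 95 bases before the start. The ANKRD1 window held 2, at 220 and 128 bases, and the RBMS3 window 0 on either strand. Of 35116 RefSeq promoters of the same length, 11.9% held the motif on either strand, 0.928% at least 2 copies and 0.0797% at least 3. A match is a description of the letters and not of a bound site. CCN2 and ANKRD1 are known YAP targets, so copies of the motif there were likely beforehand. YAP activity was not measured, and its part in the line differences was not tested. Of CCN2, ANKRD1, CCN1 and RBMS3, 3 matched the RefSeq promoter table.

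**Figure D3:**
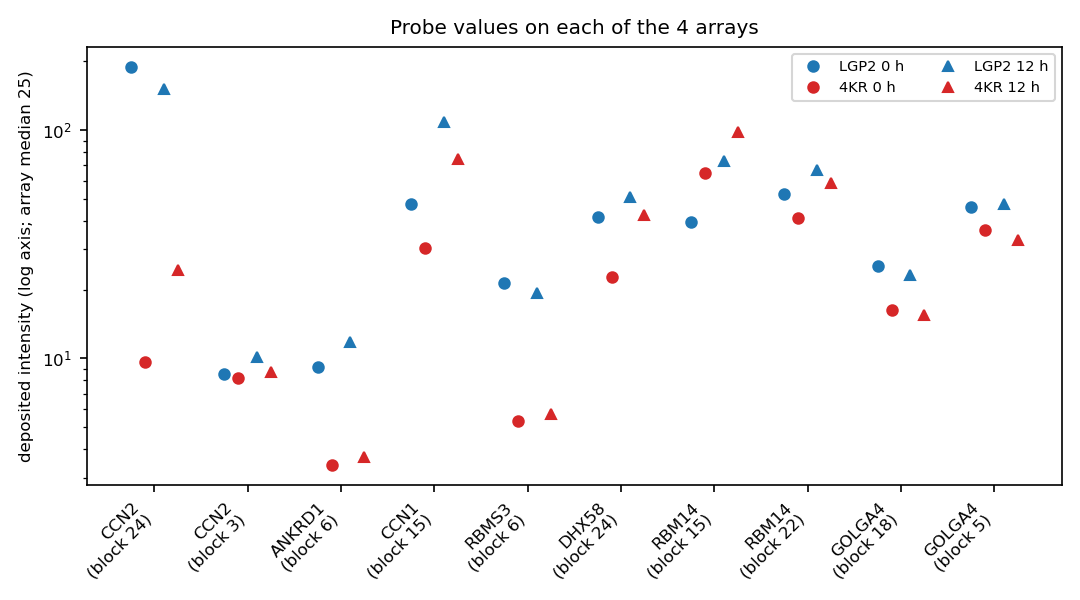
Deposited intensity (vertical log axis, array median 25) of 10 probes of 7 genes on each of the 4 arrays, with LGP2 cells in blue, 4KR cells in red, circles for 0 h and triangles for 12 h. The red points lie below the blue ones of the same time for CCN2 in block 24, ANKRD1, CCN1, RBMS3, DHX58 and both GOLGA4 probes, while the CCN2 probe in block 3 shows little gap and the RBM14 probes go opposite ways.

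COL4A6, a chain of basement membrane collagen, was the last of the 4 probes 2-fold lower at both times. Its intensities of 5.11 and 1.9 at 0 h and 2.9 and 1.1 at 12 h were low. The ratios were -1.44 and -1.33 (limma adjusted p = 0.884). Its spot is next to the CCN2 spot in block 24, and with local medians at 0 the ratios were -0.79 and -1.21, no longer 2-fold at 0 h. After normexp they were -0.16 and -0.07.

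Genes higher in 4KR cells were ranked by the smaller of their 2 ratios, among named probes with a mean intensity of at least 25. RBM14, a nuclear co-activator and RNA-binding protein, led outside the 3 blocks with 39.6 and 65.2 at 0 h and 73.1 and 98.3 at 12 h. Its ratios were 0.70 and 0.50 (mean 0.60, SE 0.09, limma adjusted p = 0.834), and the adjusted p was 0.0165 and 0.0035 in the fits without 3 and 5 blocks. A second RBM14 probe, in block 22, went the other way with ratios of -0.37 and -0.13, from 52.3 and 41 at 0 h and 67.2 and 58.7 at 12 h. The gene's direction therefore depends on the probe.

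PHLDA2, an imprinted growth regulator, read 20.3 and 27.4 at 0 h and 24.3 and 34.0 at 12 h, ratios of 0.41 and 0.55. TWNK, the mitochondrial DNA helicase, had ratios of 0.44 and 0.42, but its other probe had -0.06 and -0.09. LHX3, a homeobox factor, read 266 and 368 at 0 h and 241 and 304 at 12 h (0.45 and 0.40), and its other probe had 0.22 and -0.06. PHLDA2 and TWNK passed the adjusted p only in the fit without 5 blocks (0.0452 and 0.0422), and LHX3 also in that without 3 (0.0317 and 0.0206).

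Several of the higher genes also differed between the times. GADD45B, a stress-induced growth arrest gene and NF-kB target, read 92.5 and 121 at 0 h and 714 and 860 at 12 h, ratios of 0.37 and 0.34. Its relative GADD45G read 18.2 and 23.8, then 59.1 and 71.9 (0.37 and 0.35). TNFRSF9, the T cell co-stimulatory receptor 4-1BB, read 5.31 and 8.3, then 71.4 and 88.7 (0.63 and 0.38). In each of these 3 the gap between the lines was far smaller than the gap between the times. None of the 3 passed in any fit named above. RFPL4A (0.82 and 0.29), GSDME, the pore-forming gasdermin E (0.29 and 0.39), NXPH4, a neurexophilin (0.48 and 0.27), RBBP7, a histone-binding chromatin subunit (0.27 and 0.28), and PSMC6, a proteasome ATPase (0.27 and 0.26), completed the 12. The second RBBP7 probe had -0.12 and -0.20.

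Inside blocks 20, 21 and 24 the highest were MED13, a Mediator subunit, at 0.40 and 0.55 in block 24, the paired-box factor PAX7 at 0.51 and 0.38 and the receptor NOTCH2 at 0.34 and 0.24 in block 20, the transporter SLC38A9 at 0.30 and 0.24 in block 21, and TMEM132B at 0.36 and 0.22 in block 24. At 0 h MED13 and TMEM132B were higher where the block median was lower, and with local medians at 0 MED13 had 0.84 and 0.50. The same correction gave -0.03 and 0.16 for SLC38A9. A second MED13 probe, in block 16, had -0.09 and -0.15.

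On the lower side, 7 of the 12 named genes outside the 3 blocks lay in block 23 (4) or block 1 (3), and 0 of the 12 higher ones did. Of the 17903 probes outside the 3 blocks, block 23 held 830 and block 1 held 837. The other 5 lower genes were ANKRD11, CCN1, KIF21A, H4C7 and NUCKS1. ANKRD11, a chromatin co-regulator, read 50.9 and 33.5 at 0 h and 42.6 and 26.6 at 12 h, with ratios of -0.62 and -0.61 (mean -0.62, SE 0.08, limma adjusted p = 0.834), or -0.37 and -0.32 after normexp. Both 4KR values were below both LGP2 values, and the adjusted p was 0.0147 without the 3 blocks and 0.00294 without the 5.

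NUCKS1, a nuclear DNA-binding phosphoprotein, read 1672 and 1183 at 0 h and 1267 and 889 at 12 h. Both 4KR values were again below both LGP2 values, with ratios of -0.52 and -0.44 and adjusted p-values of 0.0194 and 0.00392 in the 2 limma fits without blocks. H4C7, a histone H4 gene, read 40.4 and 29.7 at 0 h and 59.4 and 41.5 at 12 h (-0.46 and -0.45). KIF21A, a kinesin, had ratios of -0.49 and -0.45 at column 104 of block 5, but its probes in blocks 15 and 11 had 0.07 and 0.08, and 0.07 and 0.14.

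Among the lower genes in blocks 1 and 23, SMARCC1, a subunit of the SWI/SNF remodelling complex, read 116 and 72.4 at 0 h and 87.2 and 54.9 at 12 h, and its ratios of -0.70 and -0.60 became -0.51 and -0.36 with local medians at 0. SFXN4, a mitochondrial protein, had -1.03 and -0.48 in column 103 of block 23 and -0.23 and 0.01 at its second probe, in block 18. ANP32A, an acidic nuclear phosphoprotein, had -0.50 and -0.46, with 0.15 and -0.15 at its second probe. RAB3GAP1 (-0.50 and -0.45), PLGRKT (-0.54 and -0.41), TRIM44 (-0.56 and -0.41) and DNAJC24 (-0.43 and -0.42) were the others. Their spots share places where neighbouring probes were lower too, as given above, those of TRIM44 and DNAJC24 being in columns 1 to 13 of block 1.

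The 5 lower genes ranked inside the blocks all lay in columns 92 to 104 of block 24. Besides CCN2 they were MVB12A (-1.08 and -0.59), a subunit of the ESCRT sorting machinery, CDS1 (-1.20 and -0.58), a lipid synthesis enzyme, PRKCQ-AS1 (-1.26 and -0.58) and the kinase CDK5 (-0.93 and -0.57). With the local medians at 0, the ratios of the 4 others lay between -0.28 and -0.61. None of the 4 was then 1.5-fold lower at both times, whereas CCN2 kept -3.66 and -2.45.

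**Figure D4:**
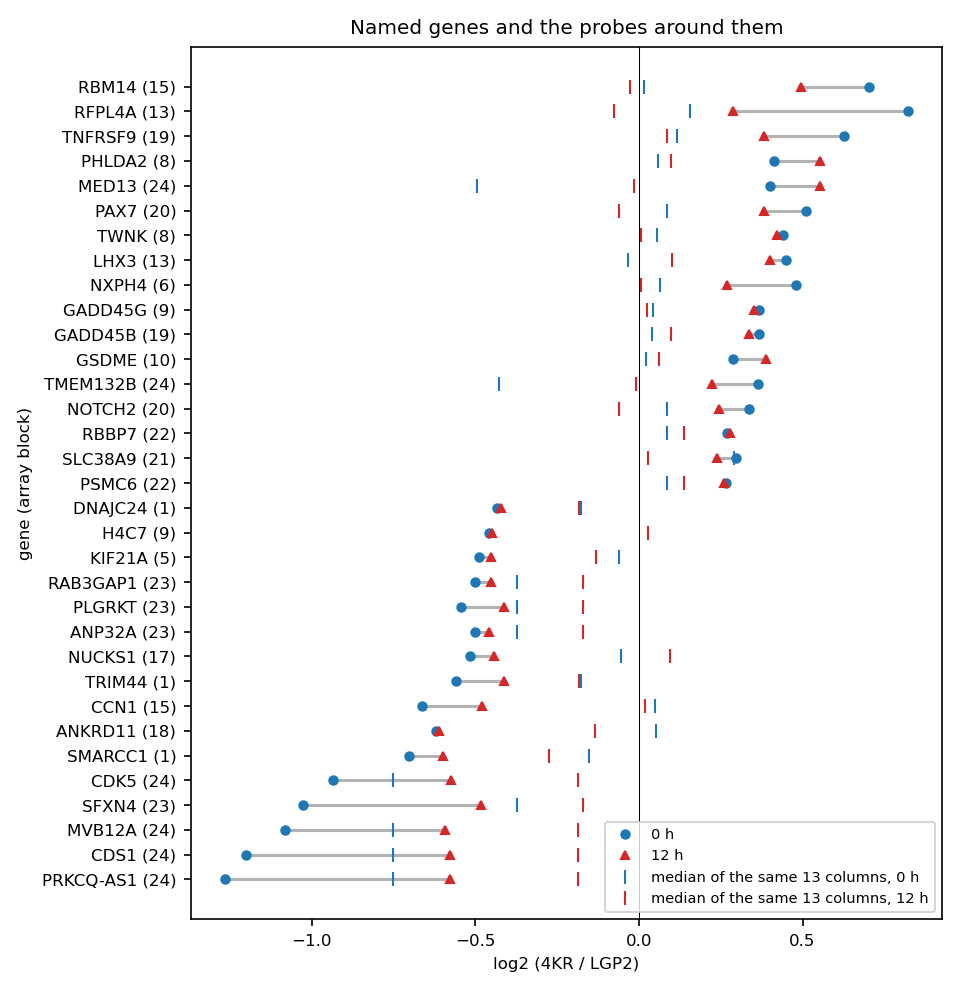
Log2 ratio of 4KR over LGP2 (horizontal axis) of the ranked genes other than CCN2 at 0 h (blue circles) and 12 h (red triangles), with ticks for the median of the 13 spot columns that hold each probe and the array block in brackets. Genes in block 24 and block 23 at the bottom lie near or beyond blue ticks that are themselves well below 0, whereas the ticks of ANKRD11, CCN1 and NUCKS1 lie near 0.

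Of the 37 genes or probes named by rank or by the 2-fold rule, 9 had another probe with values on all 4 arrays. In 1 of the 9, CCN2, the other probe had the same direction at both times, in 5 the other probe or probes were opposite at both times, and in 3 they were mixed. A gene chosen after its values were seen, GOLGA4, a Golgi tether, was the only gene with 2 probes past the adjusted p without the 5 blocks. Its probe in block 18 read 25.4 and 16.3 at 0 h and 23.2 and 15.5 at 12 h (limma adjusted p = 0.0141). Its probe in block 5 read 46.1 and 36.4, then 47.6 and 32.9 (limma adjusted p = 0.0452). The block 5 probe passed only in that fit, which was chosen after seeing the data, and not in the fit without 3 blocks. On both probes the 4KR values were below both LGP2 values.

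By list, 27 probes of YAP and serum response genes were measured, of which 15 had the same sign at both times, 11 lower and 4 higher. The list's medians were -0.04 and -0.15, against 0.00 and -0.03 over all probes and a same-sign share of 53%. Over all probes 30.2% were lower and 22.8% higher at both times. Beyond CCN2, ANKRD1 and CCN1, the differences were uneven. ACTA2, smooth muscle actin, was higher at both times on its probe in block 18, with 7.08 and 8.2 at 0 h and 5.6 and 8.2 at 12 h (0.19 and 0.62), and had 0.16 and -0.09 on its probe in block 11. KCTD12 read 183 and 75.7 at 0 h and 134 and 106 at 12 h in block 24. Calponin CNN1 had -0.67 and -0.35 at intensities of 1.2 to 4.0. SRF, the serum response factor itself, had -0.55 and 0.10. The YAP-induced genes AMOTL2 (-0.01 and -0.20), AJUBA (0.05 and -0.02) and F3 (0.05 and 0.08), and the actin-linked TAGLN (0.04 and 0.03), lay close to 0.

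Extracellular matrix and adhesion genes had 43 probes, of which 19 were lower and 2 higher at both times, with medians of -0.10 and -0.12. Their same-sign share was 48.8%, against 53% of all probes, of which 30.2% were lower and 22.8% higher. Besides COL4A6, TLN1, which encodes talin, was 1.5-fold lower at both times, but at intensities of 2.92 and 1.5, then 2.2 and 1.0. FBN2, a fibrillin, had -0.30 and -0.30. COL4A2, another basement membrane collagen, read 140 and 122 at 0 h and 74.8 and 60.4 at 12 h on its probe in block 18. The laminin LAMA5 had -0.20 and -0.39 and the integrin ITGA2 -0.21 and -0.26. COL4A1 had -0.09 and -0.08, and a second COL4A2 probe had 0.13 and -0.12. The median of the list lay below that of all probes under quantile normalization too, at -0.11 and -0.12.

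The receptors and signal proteins of the RIG-I-like pathway had 27 probes, 11 lower and 5 higher at both times, with medians of 0.00 and -0.09 and 0 past 1.5-fold at both. Of the 27, 59.3% had the same sign, against 53% of all probes, of which 0.191% were past 1.5-fold at both times. RIGI, which encodes the sensor RIG-I, gave 639 in LGP2 and 615 in 4KR cells at 12 h on its block 11 probe, a ratio of 0.01, and -0.42 on its probe in block 20. IFIH1, which encodes MDA5, had 0.02 and -0.11. The adaptor MAVS had 0.00 and -0.15, the factor IRF3 0.03 and 0.06, and TBK1 0.07 and -0.18 on its probe in block 19. TRIM14, a MAVS-binding adaptor, read 24.6 and 19.5 at 0 h and 29.8 and 23.1 at 12 h (-0.35 and -0.30). AZI2, an adaptor of TBK1, had -0.15 and -0.22 in block 1, and with local medians at 0 its ratios were 0.04 and 0.02. For none of these did the limma adjusted p fall under 0.884.

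Among outputs of the pathway at 12 h, IFNB1, the gene of interferon beta, read 613 and 580, and IFNL1, a lambda interferon, 30.9 and 31.5. Of 55 probes of interferon-stimulated genes, 23 had the same sign at both times, 14 higher and 9 lower, with medians of 0.10 and -0.04. That share, 41.8%, was below the 53% of all probes, of which 22.8% were higher and 30.2% lower. At 0 h several that were dim at that time were higher in 4KR cells, such as IFIT3 at 1.60 and 2.6 and OAS2 at 3.07 and 4.6. Their ratios at 12 h were -0.03 and -0.07. IFIT1, in block 24, was lower at 0 h, at 17.2 and 7.8 (-1.16). Under quantile normalization the list medians were 0.08 and 0.00. At 12 h the ratios ran from -2.34 for a dim SP100 probe (8.5 and 1.6) to 0.36 for RSAD2 (102 and 125). Between these ends lay IFI44L and IFI35, both in block 21, at -0.38 each, ISG15 at 0.01, MX1 at 0.07 and IFIT1 at 0.08. A second SP100 probe had -0.13. By the smaller of the 2 ratios IFI27 was the highest, at 0.39 and 0.16. In the chemokine and NF-kB list 7 of 20 probes were higher and 4 lower at both times, and CXCL8, a neutrophil-attracting chemokine, read 6.19 and 8.3 at 0 h and 338 and 372 at 12 h (0.41 and 0.21). Interferon genes had 5 of 13 probes higher and 2 lower, with medians of 0.22 and 0.01. The same-sign shares of the chemokine and interferon gene lists were 55% and 53.8%, close to that of all probes.

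Of the microRNA machinery, 13 of 14 probes had the same sign at both times, 9 lower and 4 higher, where over all probes 53% had the same sign, 30.2% lower and 22.8% higher. The medians were small, at -0.06 and -0.02, and -0.04 and 0.00 under quantile normalization. AGO2, the slicing Argonaute, read 68.8 and 58.6 at 0 h and 75.8 and 57.5 at 12 h, ratios of -0.25 and -0.33 (limma adjusted p = 0.884). TARBP2 and PRKRA, which encode the LGP2 partners TRBP and PACT, had -0.01 and -0.18, and -0.06 and -0.02. DICER1 had -0.06 and 0.07, TNRC6B -0.30 and -0.20 on its larger difference, and TNRC6A 0.22 and 0.18.

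Histone genes had medians of 0.15 and 0.09, or 0.12 and 0.12 under quantile normalization. Of 18 probes 12 were higher and 3 lower at both times. The same sign was seen for 83.3%, against 53% of all probes, of which 22.8% were higher and 30.2% lower. H1-2, a linker histone, read 239 and 340 at 0 h and 297 and 326 at 12 h, and H1-3 had 0.23 and 0.39. The replication-independent H3-3A had -0.12 and -0.08. By contrast, H3-3B had 0.00 and 0.10 on its probe in block 17, and 0.03 and 0.19 on that in block 10. H4C7, named above, was lower and stood outside this list. So did H4C2, another histone H4 gene, which was named after its values were seen and read 177 and 123 at 0 h and 247 and 197 at 12 h. H4C2 passed only in the limma fit without 5 blocks, with ratios there of -0.56 and -0.27 (adjusted p = 0.0435).

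Cholesterol and fatty acid synthesis genes had 19 of 30 probes lower and 3 higher at both times, with medians of -0.09 and -0.17. STARD4, a sterol carrier, read 103 and 84.6 at 0 h and 96.8 and 77.6 at 12 h. INSIG1, which retains the sterol sensor in the endoplasmic reticulum, had -0.29 and -0.21, and the desaturase SCD -0.24 and -0.52 in block 21. Under quantile normalization the medians were -0.04 and -0.12. Nuclear genes of oxidative phosphorylation had 27 of 36 lower and 2 higher, with medians of -0.05 and -0.16, and ATP5F1A had -0.27 and -0.17 in block 23. Quantile normalization moved those medians to 0.00 and -0.09. Same-sign shares were 73.3% in the cholesterol list and 80.6% in the oxidative phosphorylation list, against 53% of all probes. Over all probes 30.2% were lower at both times and 22.8% higher.

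Control, ribosomal and cell cycle lists had more probes lower than higher at both times, but their medians depended on the scaling. Their same-sign shares were 60%, 52.3% and 53.5%, beside 53% of all probes, of which 30.2% were lower and 22.8% higher. Of the common control genes 11 of 20 probes were lower and 1 higher, with medians of -0.06 and -0.15, and of cytosolic ribosomal protein genes 22 of 44 were lower and 1 higher, with -0.04 and -0.09. Quantile normalization gave -0.01 and -0.07 for control genes and 0.00 and -0.01 for ribosomal ones. Cell cycle genes had 20 of 43 lower and 3 higher, with -0.03 and -0.12, which quantile normalization moved to 0.03 and -0.06, above 0 at 0 h. The mitotic kinase PLK1 was 1.5-fold lower at both times (-0.83 and -0.63), in column 103 of block 24, with -0.17 and -0.51 once local medians were at 0. TOP2A, a topoisomerase, read 287 and 221 at 0 h and 220 and 180 at 12 h in block 2.

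Of the remaining lists, stress response genes had 11 of 33 probes lower and 4 higher, immediate early genes 8 of 28 each way, p53 targets 8 of 26 lower and 7 higher, imprinted genes 8 of 21 lower and 6 higher, and cancer-testis genes 6 of 18 higher and 2 lower. Over all probes 30.2% were lower and 22.8% higher, and the lower shares of the stress, immediate early and p53 lists were close to that. In all 22 lists 0 probes passed the adjusted p in the fit of all members.

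**Figure D5:**
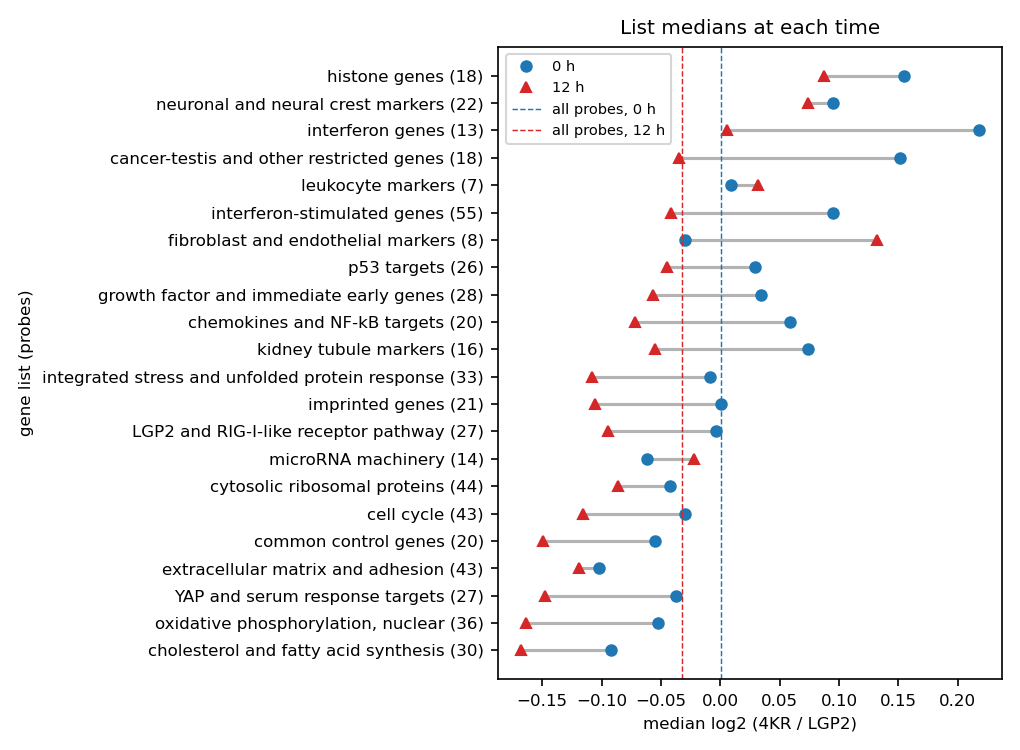
Median log2 ratio of 4KR over LGP2 (horizontal axis) of each of the 22 gene lists at 0 h (blue circles) and 12 h (red triangles), with the number of probes in brackets and dashed lines for the medians of all 20465 probes. The list medians run from -0.10 to 0.22 at 0 h and from -0.17 to 0.13 at 12 h, on both sides of the dashed lines.

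The cell type labels were set beside marker lists. Of 15 kidney tubule markers on the array, 14 had values on all 4 arrays, with summed intensities of 208 and 274 in LGP2 cells and 211 and 238 in 4KR cells at 0 h and 12 h. Of 24 neuronal and neural crest markers, which HEK293 cells are known to express in part, 21 did, with sums of 1036 and 1125 in LGP2 cells and 1065 and 1083 in 4KR cells. ELAVL4, DCX and DBH had no value on any array. In this list 12 of 22 probes were higher and 2 lower in 4KR cells at both times, with medians of 0.10 and 0.07 and CHGA, chromogranin A, at 0.46 and 0.27. Over all probes 22.8% were higher and 30.2% lower. The part of such markers in the other differences was not tested.

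Markers of other cell types were in part without values in both lines. Of 16 fibroblast and endothelial markers 8 had values on all 4 arrays, with sums of 165 and 194 in LGP2 and 167 and 190 in 4KR cells, and COL1A2, PECAM1, TEK and EMCN had none. Of 15 leukocyte markers 7 did, with sums of 189 and 226 and of 196 and 220, and CD3G, CD4, CD8A, MS4A1 and GNLY had none. Others had values on every array, reaching 147 for CD79A and 23.1 for CD14, and 91.7 for the fibroblast marker DCN. The highest value of a kidney marker was 53.4, for EMX2. The kidney sums were not far above those of the fibroblast and leukocyte lists, so the sums do not tell the cell types apart. The fibroblast and leukocyte sums differed less between the lines than between the times.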

How the data were processed

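RNA of 4 samples was hybridised to single-colour Cy5 arrays of 24 blocks. The values deposited by the authors are linear intensities: set against the scanner's spot medians, per the file headers, they equal the spot median minus about the blank mean, scaled to a median of 25 and left empty near the blank level. Which spots were left empty, and by what rule, the sources used here do not say. Log2 values were centred per array, fitted with limma 3.58.1 in R 4.3.3 (line and time, intensity trend, 1 residual degree of freedom) and adjusted by Benjamini-Hochberg. An exact 2-against-2 permutation test of a single probe cannot go below p = 0.333. Position corrections were made in R. They took from each array the median deviation of its probes from their means over all arrays, by block or by 13 columns. Each array was then centred again. Summaries used Python 3.11.15.

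Members and gene lists were chosen with earlier results of these data known. Genes were named by rule: DHX58; calls; up to 12 per direction outside and 5 inside blocks 20, 21 and 24, with mean intensity of at least 25, ranked by the smaller ratio; 2-fold probes; and up to 3 per list. By the platform annotation 21707 probes have 1 gene symbol, 0 several and 2753 none, and 21675 were found in RefSeq. No genome build is named in the files. The time enters as the replicate block because the rule pairs lines within time; the alternatives tried were scaling, background, offset, dim probes, position, block and trend.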

Additional observations from a re-analysis of the deposited data

Results flagged for a closer look

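The table gave a value on both LGP2 arrays and on neither 4KR array for 19 probes, which the comparison of 20465 probes does not use. The highest value among them was 8.43, for ADAMTS20 at 0 h (1.3 at 12 h), followed by HMGN5 (6.16 and 0.9) and DLGAP2 (4.77 and 1.6). The opposite pattern, both 4KR arrays and neither LGP2 array, was seen for 5 probes, the highest at 1.9. The named ones were SLAMF1, HPSE and NT5DC4. None of these differences was tested.

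For 1 probe the lines were 2-fold apart in opposite directions at the 2 times. ALPK2, a kinase gene, read 2.11 in LGP2 and 4.8 in 4KR cells at 0 h and 6 and 2.7 at 12 h, ratios of 1.17 and -1.08. The difference between the times was not tested.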

How the results depend on the processing

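The number of probes past the adjusted p was 37 without blocks 20, 21 and 24, 26 without blocks 1, 20, 21, 23 and 24, and 0 in all other settings. Leaving out time as the replicate block also gave 0, with 123 probes at an unadjusted p under 0.05. The count of probes 1.5-fold apart at both times was 1 with normexp, 1 with an offset of 25, 2 with probes of mean intensity of at least 25, centred among themselves, 23 without 3 blocks and 20 without 5, against 39. The 2-fold count was 1, 1, 1, 2 and 2 in the same order, against 4. At 1 time alone the 1.5-fold count ranged from 649 to 841 and the 2-fold count from 109 to 148. The same-sign share was 49.6% in the values as deposited, where the median of all probes lay at 0.02 and -0.10, and 54.7% among bright probes, 54.9% and 54.6% without 3 and 5 blocks, 54.7% with block medians at 0 and 54.6% with local medians of 13 columns at 0. The last and the 5-block setting were chosen after seeing the data. Of 975 values of named genes under other settings 706 stayed within the spread of the 2 times and 269 moved. Among the 975, 1 turned sign, the mean ratio of AZI2, which was 0.03 with local medians at 0. Ratios at a single time, not counted here, could turn sign too, as that of SLC38A9 did at 0 h. Of 242 list medians 43 moved and 25 turned sign. The number of arrays, 4, limits the precision, and the ratios of dim probes spread more widely than those of bright ones.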
